A study of Mus musculus with 6 samples.

Results

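The genes described here are Hlx, the target of the hairpin, and 32 further homeobox genes of the HOX, TALE and NKL classes. They were chosen by symbol, and each took the one probe set on the array annotated to that symbol alone. Of the 33 genes named, 32 had such a probe set, out of 19938 genes measured. Hoxb8, known to hold mouse myeloid progenitors in an immature state when overexpressed, was represented only by a probe set shared with Hoxb7. It is not given a value.

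The 6 arrays came from URE cells, a mouse myeloid leukaemia line known to lack an upstream regulatory element of Spi1, the gene for PU.1, in both groups alike. In the shHLX group (3 arrays) the cells carried a short hairpin against Hlx, and in the shControl group (3 arrays) a hairpin against luciferase. Both hairpins were delivered with the lentiviral vector pSIH1-H1-copGFP, and RNA came from cells sorted for the green fluorescent protein it encodes. The sources used here do not give the number of hairpin sequences per target or say whether replicates were separate transductions. The p-values therefore reflect no more than the spread among these 6 arrays, which may be technical.

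Homeobox genes encode transcription factors that bind DNA through a homeodomain. HOX genes lie in 4 clusters and mark position along the body axis in the embryo. In blood their expression is highest in stem and progenitor cells and normally declines as cells mature. TALE proteins (MEIS, PBX and PKNOX) bind DNA together with HOX proteins. Persistent HOXA9 with MEIS1 is a well-known feature of many acute myeloid leukaemias. NKL genes such as Hlx, Hhex and Tlx1 are HOX relatives outside the clusters, and several of them are active in normal or leukaemic blood cells. The study set out to examine what Hlx does in blood cell differentiation and tumour formation.

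The bases just upstream of 3 genes are printed for reference: Hlx, the hairpin's target, and Hoxb4 and Hhex, the members called (defined below). Each is the 250 bases before the annotated start in RefSeq, build GRCm38.p6, at chr1:184732494-184732743 on the minus strand for Hlx, chr11:96318017-96318266 on the plus strand for Hoxb4 and chr19:37434591-37434840 on the plus strand for Hhex, each written 5′ to 3′ along its gene. Capitals mark matches to CCAAT on either strand (the NF-Y core).

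Hlx: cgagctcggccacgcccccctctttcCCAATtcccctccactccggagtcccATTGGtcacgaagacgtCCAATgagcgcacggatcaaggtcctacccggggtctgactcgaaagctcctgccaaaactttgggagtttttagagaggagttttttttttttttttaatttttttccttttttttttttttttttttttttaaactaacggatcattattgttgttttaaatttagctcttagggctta
Hoxb4: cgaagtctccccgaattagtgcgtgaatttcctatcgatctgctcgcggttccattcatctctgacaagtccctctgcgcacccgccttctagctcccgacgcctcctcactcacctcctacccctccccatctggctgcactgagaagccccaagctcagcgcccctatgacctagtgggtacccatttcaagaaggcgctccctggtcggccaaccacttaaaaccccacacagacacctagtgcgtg
Hhex: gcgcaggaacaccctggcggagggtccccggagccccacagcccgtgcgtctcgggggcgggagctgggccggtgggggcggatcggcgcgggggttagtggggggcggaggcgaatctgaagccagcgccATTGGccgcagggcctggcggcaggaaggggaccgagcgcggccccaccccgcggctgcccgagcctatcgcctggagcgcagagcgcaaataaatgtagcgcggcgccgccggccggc

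The motifs searched on both strands were the TATA box core TATAAA, the NF-Y core CCAAT, the E-box core CACGTG, the MEIS-type core TGACAG, the homeodomain core TAATTA and the core for PBX with HOX, TGATTNAT. Hlx had 3 matches to CCAAT and Hhex had 1, while the Hoxb4 window held none of the 6 motifs. No match of one motif overlapped another. Among the 32851 promoter windows of the same length in the table, 33.8% held CCAAT, 12.4% TATAAA, 6.02% CACGTG, 15.9% TGACAG, 4.84% TAATTA and 2.82% TGATTNAT. The windows held 11 CG dinucleotides for Hlx, 14 for Hoxb4 and 32 for Hhex, against a median of 6 per window. Of the 33 genes named, 20 had a promoter window in the table.

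Values are log2 signals, on which a difference of 1 is a doubling. A gene is called when its adjusted p is under 0.05 (limma, Benjamini-Hochberg over all 19938 genes). Array medians lay between 7.02 and 7.10. Probe sets differ in how well they bind, and no detection values were used here, so signals do not rank amounts of RNA between genes. As a guide to dim signal, 1194 olfactory and vomeronasal receptor genes, which blood cells are not known to use, had a median signal of 4.92 and a 95th percentile of 6.61. The guide is loose: 33 of 41 other NKL genes, among them the heart gene Nkx2-5 at 8.28, also exceeded that percentile. In bulk samples, fewer cells that express a gene and less of its RNA per cell cannot be told apart.

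The blood cell label was checked against markers. Of 18 blood and myeloid markers, 15 exceeded the 95th percentile of the receptor genes, with the neutrophil elastase gene Elane at 13.98, Runx1 at 12.62, Myb at 12.50 and Spi1 at 10.34. The pan-leukocyte gene Ptprc (6.04), Csf1r (6.30) and Cd34 (6.01) did not. The averages of this list were 10.68 to 10.72 on the shHLX arrays and 10.77 to 10.78 on the shControl arrays, with Itgam (0.75) and Lyz2 (0.39) called higher and Kit (-0.73), Mpo (-1.46) and Gfi1 (-0.26) called lower in shHLX on the log2 scale. Averages of 14 lymphoid markers were 5.78 to 5.90 in shHLX and 5.83 to 5.96 in shControl, of 6 erythroid markers 6.51 to 6.54 in shHLX and 6.58 to 6.71 in shControl, and of 5 megakaryocyte markers 6.09 to 6.29 in shHLX and 6.25 to 6.31 in shControl. By limma 0 genes of these 3 lists were called, and 1, 1 and 0 of them had an unadjusted p under 0.05. The receptor genes' 95th percentile was exceeded by 5 of the lymphoid markers (Cd3e 7.67, Cd8a 7.19, Cd79b 6.69, Pax5 6.67 and Cd4 6.63) and not by the other 9, which include Cd3g (4.84), Ms4a1 (5.03) and Cd79a (5.39). It was exceeded by 3 erythroid, 3 megakaryocyte and 8 stromal and endothelial markers. Averages of 14 stromal and endothelial markers were 6.75 to 6.88 in shHLX and 6.91 to 6.96 in shControl, where Cdh5 was lower (-2.68) and Pecam1 higher (1.87) in shHLX on the log2 scale, both called. The part of these shifts in the homeobox values was not tested.

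The array shHLX 3 stood apart, though not for these genes alone. Among the 3 shHLX arrays it was also the lowest for most lymphoid and most stromal and endothelial markers. It gave the lowest of the 3 shHLX values for 26 of the 32 measured homeobox genes, against 44.8% of all genes. For the 15 homeobox genes at or below the receptor genes' 95th percentile it was lowest in 14, against 55.9% of the 7050 genes at that level. With it, 23 homeobox genes had a negative shHLX minus shControl difference and 9 a positive one, where 54.6% of all genes were negative. Without it the split was 16 and 16, and it was 17 and 15 after a second quantile normalization or after centring each array on its median. No direction is therefore given for the homeobox genes as a group.

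**Figure D1:**
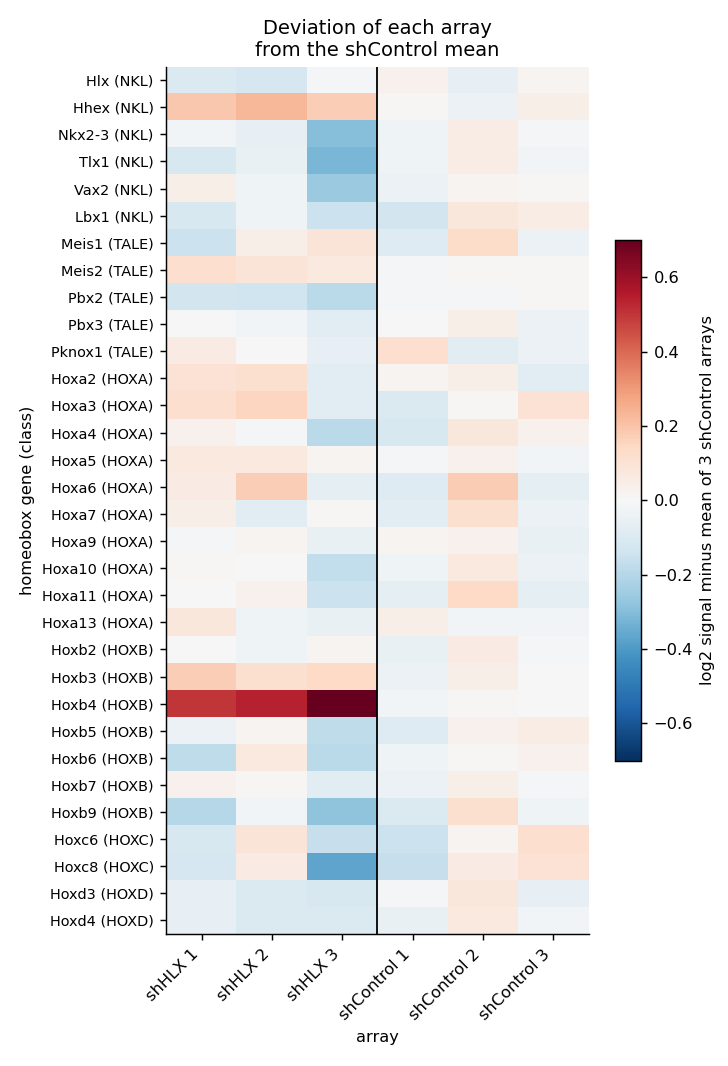
Heat map of the log2 signal of each of the 32 homeobox genes (rows) on each array (columns, shHLX left of shControl) minus the mean of the 3 shControl arrays; red is higher and blue lower. The row of Hoxb4 is red on all 3 shHLX arrays, and most rows are at their lowest shHLX value on shHLX 3.

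Of the 32 homeobox genes, Hoxb4 and Hhex were called, both higher in shHLX, and 0 were called lower by limma (4 had an unadjusted p under 0.05, where 19.4% of all genes did). Over all genes 6.18% were called, 3.75% higher and 2.43% lower, so 2 of 32 is close to the background share. The groups did not overlap for 8 homeobox genes, 4 higher and 4 lower in shHLX, where this held for 26.2% of all genes. The median difference was -0.04 on the log2 scale, beside -0.01 over all genes. The 30 genes that were not called differed by -0.17 to 0.14, and their 95% confidence intervals all lay between -0.40 and 0.26. Of these 30 intervals, those of Pbx2 and Hoxb3 left out 0, without adjustment for the number of genes tested.

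**Figure D2:**
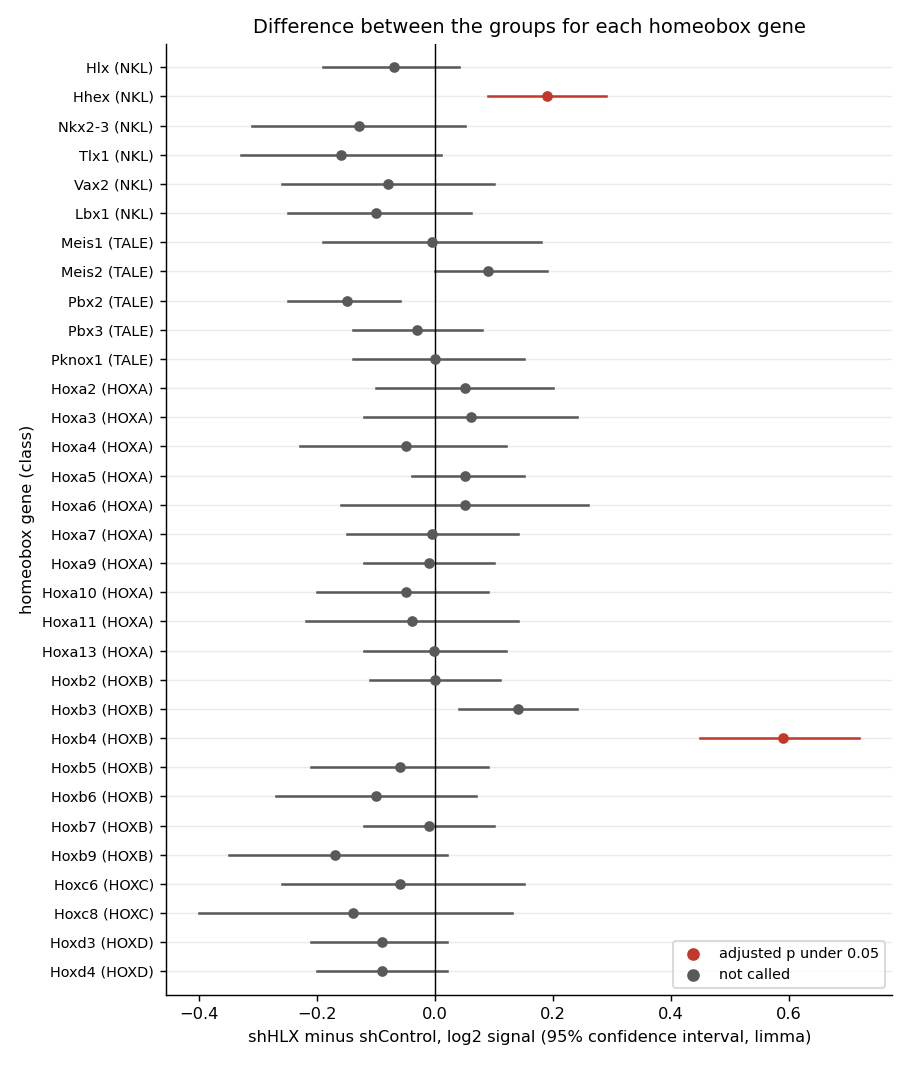
Difference between shHLX and shControl in log2 signal (horizontal axis) for each of the 32 homeobox genes, with limma's 95% confidence interval, n = 3 arrays a group. Hoxb4 at 0.59 and Hhex at 0.19 are the called genes (red), and the intervals of most others cross 0.

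Hlx came first among the NKL genes as the target of the hairpin. Its probe set (10360834, Entrez gene 15284) read 10.08, 10.06 and 10.17 on the arrays labelled shHLX, against 10.21, 10.12 and 10.20 on the shControl arrays. The groups overlapped, with shHLX 3 above shControl 2. The difference was -0.07 (95% confidence interval -0.19 to 0.04, limma adjusted p = 0.479), and an exact two-sided permutation test gave p = 0.2 (with 3 arrays a group it cannot go below 0.1). Lower Hlx mRNA was thus not shown on the arrays labelled shHLX, and all directions given here rest on the labels. The interval puts the shHLX signal between 87.8% and 103% of control. Where in the transcript the probes lie relative to the hairpin's target site was not analysed here. Hlx had the brightest signal of the 32 homeobox genes on average, 10.14, above 84.1% of all genes measured.

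Hhex, an NKL gene needed for early liver and endothelial development and expressed in blood progenitors, read 8.93, 8.97 and 8.91 in shHLX, against 8.75, 8.70 and 8.78 in shControl. All 3 shHLX values lay above all 3 shControl values. The rise was 1.14-fold (95% confidence interval 1.06 to 1.23, limma adjusted p = 0.045), and the call was lost whichever 1 array was left out (adjusted p 0.0831 to 0.138). The call was lost in 11 of 18 alternatives in all, over which its adjusted p ran from 0.00725 to 0.138.

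The other 4 NKL genes were not called. Tlx1, needed for the spleen and activated by translocation in T cell leukaemia, read 6.33, 6.39 and 6.12 in shHLX, against 6.41, 6.49 and 6.42 in shControl. The groups did not overlap, but shHLX 3 was by far the lowest array. The difference was -0.16 (SE 0.0724, limma adjusted p = 0.289), and -0.08 without that array. Nkx2-3, which acts in spleen and gut development, Vax2, an eye patterning gene, and Lbx1, which acts in migrating muscle precursors, had mean signals of 7.09, 7.25 and 8.13. Their differences were -0.13, -0.08 and -0.10 on the log2 scale, with overlapping groups. Leaving out 1 array moved these by over 1.5 times: Nkx2-3 was at -0.04 and Vax2 at 0.01 without shHLX 3, and Lbx1 ran from -0.16 without shControl 1 to -0.06 without shControl 2.

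Of the 5 TALE genes in the set, those for the HOX partners PBX2 and PBX3 were the brightest. Pbx2 read 10.01, 10.00 and 9.95 in shHLX, against 10.13, 10.13 and 10.15 in shControl, and the groups did not overlap. Its difference of -0.15 (95% confidence interval -0.25 to -0.06) missed the threshold (limma adjusted p = 0.0807). It passed in 7 of 18 alternatives, a looser threshold of 0.10 among them, over which the adjusted p ran from 0.0114 to 0.25. Pbx3 read 9.94, 9.92 and 9.86 in shHLX, against 9.94, 9.98 and 9.90 in shControl, so its groups overlapped (difference -0.03).

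Meis1, the best-known partner of HOXA9 in leukaemia, read 6.01, 6.20 and 6.25 in shHLX, against 6.07, 6.29 and 6.12 in shControl. It sat in the range of the receptor genes, brighter than 87.4% of them, and its groups overlapped (difference -0.005, 95% confidence interval -0.19 to 0.18). Meis2 read 5.81, 5.78 and 5.76 in shHLX, against 5.68, 5.70 and 5.70 in shControl. Its groups were apart but the difference of 0.09 was not called (limma adjusted p = 0.267) and lay on a dim signal, above 78.3% of the receptor genes. Pknox1, a further HOX partner, had a mean of 8.06 in shHLX and 8.06 in shControl.

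**Figure D3:**
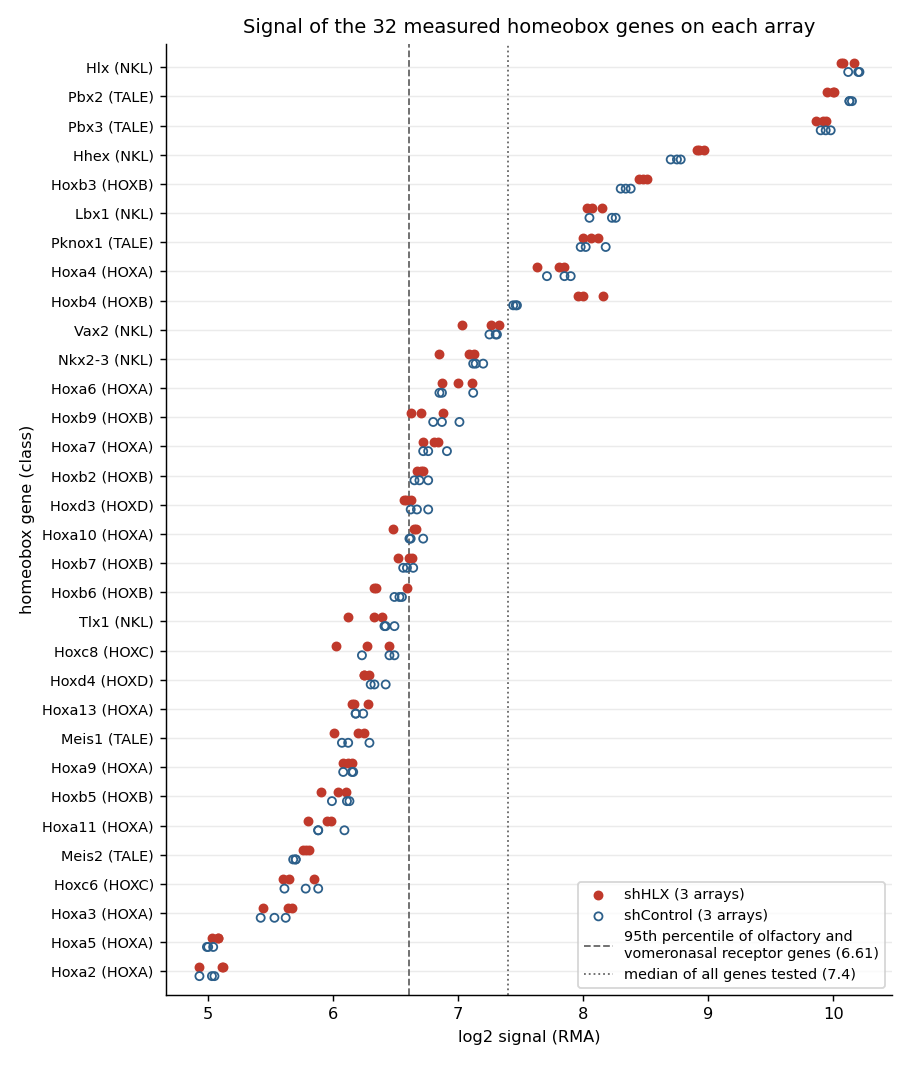
Log2 signal (horizontal axis) of the 32 homeobox genes on each of the 3 shHLX arrays (filled) and 3 shControl arrays (open), ordered by mean signal, with the 95th percentile of receptor genes at 6.61 and the median of all genes at 7.40. Hlx, Pbx2 and Pbx3 lie near 10, and most HOX genes lie left of the median of all genes.

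Most HOX genes gave low signal in both groups. Of the 32 homeobox genes 17 exceeded the receptor genes' 95th percentile, where 64.6% of all genes did, and 9 exceeded the median of all genes (7.40). Among the 21 HOX genes measured, those 9 included Hoxb3, Hoxb4 and Hoxa4.

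Of the 10 HOXA genes 0 were called by limma, over all genes or at an unadjusted p under 0.05, and 4 exceeded the receptor genes' 95th percentile. Hoxa4 was the brightest, at 7.85, 7.81 and 7.63 in shHLX and 7.71, 7.90 and 7.85 in shControl. Its groups overlapped (difference -0.05). Hoxa6 read 7.00, 7.11 and 6.87 in shHLX, against 6.85, 7.12 and 6.87 in shControl, and also overlapped (difference 0.05).

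Hoxa9, the HOX gene most often linked to acute myeloid leukaemia, read 6.12, 6.15 and 6.08 in shHLX, against 6.15, 6.16 and 6.08 in shControl. That signal exceeded 86.9% of the receptor genes. The difference was -0.01 (95% confidence interval -0.12 to 0.10). Hoxa7 and Hoxa10, which like Hoxa9 are HOXA genes of blood progenitors, were not called. Hoxa7 averaged 6.79 in shHLX and 6.80 in shControl, and Hoxa10 averaged 6.60 in shHLX and 6.65 in shControl. Hoxa2, Hoxa3, Hoxa5, Hoxa11 and Hoxa13, patterning genes of the head, trunk and limbs, had mean signals of 5.03, 5.55, 5.04, 5.93 and 6.20 and overlapping groups.

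Hoxb4, a HOX gene known for expanding blood stem cells when overexpressed, showed the one sizeable change. It read 7.96, 8.00 and 8.16 in shHLX, against 7.44, 7.47 and 7.46 in shControl. The lowest shHLX array was well above the highest shControl array, and shHLX 3, low for most homeobox genes, was here the highest. The rise was 1.50-fold (95% confidence interval 1.37 to 1.65, limma adjusted p = 0.000821), the 174th largest of the 19938 genes. It stayed called whichever array was left out, at 0.53 to 0.62 on the log2 scale (adjusted p up to 0.00642), with 0.53 without shHLX 3. Over all alternatives its highest adjusted p was 0.0258, without variance moderation.

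The neighbours of Hoxb4 in the HOXB cluster were compared with it directly. Hoxb3 read 8.51, 8.45 and 8.48 in shHLX, against 8.30, 8.38 and 8.34 in shControl. Its groups did not overlap, and its difference of 0.14 (95% confidence interval 0.04 to 0.24) was not called (limma adjusted p = 0.124). Hoxb5 had means of 6.01 ± 0.102 in shHLX and 6.08 ± 0.0771 in shControl (SD, n = 3 each) and was not called.

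Within arrays, Hoxb4 minus Hoxb3 was -0.55, -0.45 and -0.32 in shHLX, against -0.86, -0.91 and -0.88 in shControl, so Hoxb4 gained 0.45 on Hoxb3. Hoxb4 minus Hoxb5 was 1.92, 1.91 and 2.25 in shHLX, against 1.45, 1.35 and 1.33 in shControl. Neither set of differences overlapped between the groups. The gain on Hoxb3 gave p = 0.1 in an exact two-sided permutation test, the smallest that 3 arrays against 3 can give, for a gene singled out because it was called. Hoxb5 lay below the receptor genes' 95th percentile, so the gap of 0.65 against it largely restates the rise of Hoxb4 itself (0.59) and no test is given for it. In RefSeq the span of Hoxb3 encloses Hoxb4, and a probe set may read transcripts of both where they share exons. Which exons the probes match was not analysed here.

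The remaining HOXB genes were not called. Hoxb9 read 6.70, 6.88 and 6.62 in shHLX, against 6.80, 7.01 and 6.87 in shControl, with overlap and a difference of -0.17 (limma adjusted p = 0.315). Hoxb2, Hoxb6 and Hoxb7 had mean signals of 6.70, 6.47 and 6.59 and differences of -0.0004, -0.10 and -0.01. The plot of both clusters shows the change at Hoxb4 standing between a bright Hoxb3 and a dim Hoxb5.

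**Figure D4:**
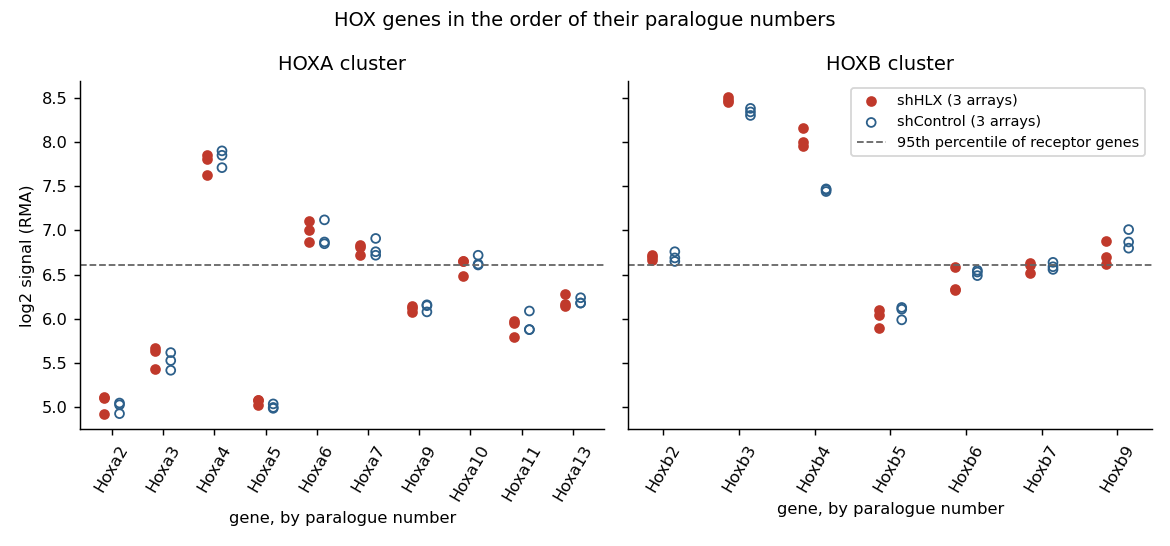
Log2 signal (vertical axis) of the measured HOXA genes (left) and HOXB genes (right) in the order of their paralogue numbers, with 3 shHLX arrays (filled, left of each pair) and 3 shControl arrays (open). Hoxb4 is the gene whose groups stand far apart, while Hoxa9 and Hoxb5 lie below the dashed 95th percentile of the receptor genes.

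Of the HOXC and HOXD genes, Hoxc6, Hoxc8 and Hoxd4 lay below the receptor genes' 95th percentile and Hoxd3, at a mean of 6.63, just above it. Hoxc8 read 6.27, 6.45 and 6.02 in shHLX, against 6.23, 6.45 and 6.49 in shControl, with the widest confidence interval of the homeobox genes (-0.40 to 0.13). Hoxc6 read 5.65, 5.85 and 5.60 in shHLX, against 5.61, 5.78 and 5.88 in shControl. Both sets overlapped. Hoxd3 read 6.62, 6.58 and 6.57 in shHLX, against 6.67, 6.76 and 6.62 in shControl. Hoxd4 read 6.29, 6.25 and 6.25 in shHLX, against 6.30, 6.42 and 6.33 in shControl. The groups stood narrowly apart for both, with the closest arrays of Hoxd3 equal as rounded (-0.09 each, limma adjusted p = 0.363 and 0.348). In RefSeq Hoxd3 encloses Hoxd4, so these 2 genes may share transcripts.

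Other members of the same classes were read for comparison. Over all genes 6.18% were called and 19.4% had an unadjusted p under 0.05. The calls found here, 1 of 16, 1 of 12 and 0 of 41, are therefore not read as a result about these classes. Of 16 further HOX genes 1 was called: Hoxb13, a gene of the prostate and tail bud at the far end of the HOXB cluster, read 6.87, 6.92 and 6.80 in shHLX, against 6.60, 6.47 and 6.51 in shControl. This was a 1.26-fold rise at a signal near the receptor genes' 95th percentile (95% confidence interval 1.15 to 1.37, limma adjusted p = 0.0101), and it was lost without shHLX 1 (0.0504) or shControl 3 (0.0551). Of 12 further TALE genes 1 was called: Meis3, a relative of Meis1, rose 1.21-fold to 7.99 ± 0.0585 in shHLX, against 7.71 ± 0.0551 in shControl (SD, n = 3 each, limma adjusted p = 0.0177). That call was lost without shHLX 1, shHLX 2, shControl 1 or shControl 3 (adjusted p 0.0555 to 0.0741). Of 41 further NKL genes 0 were called by limma and 4 had an unadjusted p under 0.05. The smallest p was that of Hmx3, an inner ear gene, at -0.15 (limma adjusted p = 0.0882).

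Larger changes lay among homeobox genes outside these classes, of which 1 of 25 was called higher and 3 lower, where 3.75% of all genes were called higher and 2.43% lower. An unadjusted p under 0.05 was reached by 11 of the 25, against 19.4% of all genes. The list was drawn up with earlier results of these data known, so these counts describe these genes only. It is also a bright list: 22 of the 25 exceeded the receptor genes' 95th percentile, where 64.6% of all genes did. Of all genes above that percentile 8.78% were called, against 1.45% of those at or below it. Satb1, which encodes a chromatin organiser active in T cells and stem cells, read 7.01, 7.12 and 7.12 in shHLX, against 8.00, 8.09 and 8.11 in shControl. The fall was large, by a log2 difference of -0.98 (SE 0.053, limma adjusted p = 4.29e-05). The POU factor gene Pou6f1 read 7.96, 8.01 and 7.82 in shHLX, against 8.54, 8.56 and 8.52 in shControl, and fell, with a log2 difference of -0.61 (SE 0.0569, limma adjusted p = 0.000638).

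Hopx, which encodes a small homeodomain protein that does not bind DNA itself, read 7.65, 7.72 and 7.70 in shHLX, against 7.01, 7.14 and 6.86 in shControl. It rose 1.61-fold (95% confidence interval 1.44 to 1.82, limma adjusted p = 0.00125). Leaving out any 1 array ended none of the calls of Satb1, Pou6f1 and Hopx. Six5 was lower in shHLX at -0.22 (limma adjusted p = 0.0483) and lost the call without any of 5 arrays, all but shHLX 3 (adjusted p up to 0.149).

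Genes of the machinery that maintains HOX expression showed no called change, where 6.18% of all genes were called and 19.4% had an unadjusted p under 0.05. All measured genes of both lists exceeded the receptor genes' 95th percentile, and 8.78% of all genes above it were called. At either share few calls would arise in lists of 25 and 29 genes, so having none says little about them. The MLL complex, with DOT1L and their partners, keeps HOX genes active, and Polycomb complexes keep them silent. Of 25 MLL and DOT1L genes 0 were called by limma, 3 had an unadjusted p under 0.05, and the differences ran from -0.13 to 0.19. The smallest p was that of Ctr9, a PAF complex gene, at 0.19 (limma adjusted p = 0.174). Of 29 Polycomb genes 0 were called by limma, 6 had an unadjusted p under 0.05, and the differences ran from -0.24 to 0.17. The smallest p was that of Pcgf6, a subunit gene of Polycomb complex 1 variants, at -0.24 (limma adjusted p = 0.0639). Pcgf6 passed in 6 of 18 alternatives, the looser threshold among them (adjusted p 0.00648 to 0.209). Medians of these lists were 0.00 and 0.01.

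Of 27 genes recalled as lying downstream of HOXA9 and MEIS1 in myeloid cells, 4 rose and 2 fell, where 3.75% of all genes were called higher and 2.43% lower, and the median was -0.01. An unadjusted p under 0.05 was reached by 15 of the 27, against 19.4% of all genes. The list was drawn up with earlier results of these data known, so its counts describe these genes only. The transglutaminase gene Tgm2 read 8.85, 8.89 and 8.93 in shHLX, against 8.04, 8.18 and 8.31 in shControl, a rise of 1.64-fold (limma adjusted p = 0.000806). The receptor gene Flt3 rose 1.56-fold, to 7.54 ± 0.102 in shHLX, against 6.90 ± 0.0782 in shControl (SD, n = 3 each, limma adjusted p = 0.00102). The kinase gene Pim1 rose 1.39-fold (limma adjusted p = 0.000876), and the calcium-dependent kinase gene Camk2d fell by 0.75 on the log2 scale (limma adjusted p = 0.00137). Hoxa9 and Meis1 themselves differed by -0.01 and -0.005. Their mean signals, 6.13 and 6.16, lay below the receptor genes' 95th percentile, so a change in their RNA could be missed. Any part of theirs in the changes of this list was not tested.

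Of 15 genes beside the HOX clusters, 2 were called higher and 0 lower by limma. Over all genes 3.75% were called higher and 2.43% lower. The median of the list was 0.00, and 3 of the 15 had an unadjusted p under 0.05, against 19.4% of all genes. Snx10, which encodes a sorting nexin of endosomes and lies near HOXA, read 7.56, 7.84 and 7.58 in shHLX, against 6.98, 7.08 and 7.05 in shControl (1.54-fold, limma adjusted p = 0.00313). Its call was lost without variance moderation (0.0594). Mtx2, which encodes a mitochondrial import protein and lies beside HOXD, rose 1.24-fold (limma adjusted p = 0.0435) and lost its call without any of 5 arrays, all but shHLX 2 (adjusted p 0.0668 to 0.164). In the plot of the lists, the called genes are scattered on both sides of 0, and the MLL and Polycomb lists hold none.

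**Figure D5:**
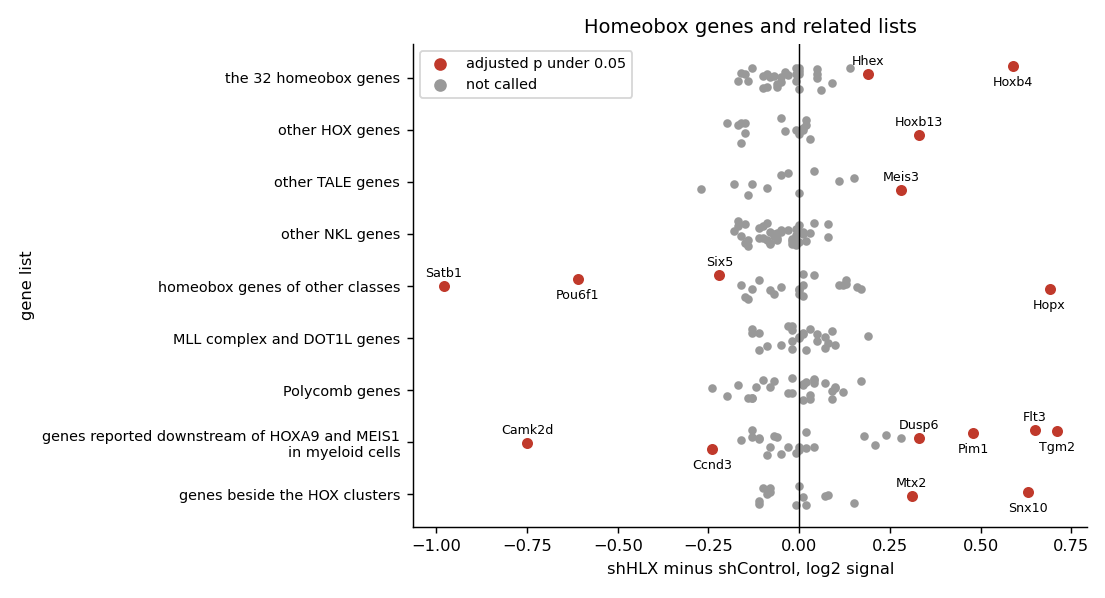
Difference between shHLX and shControl in log2 signal (horizontal axis) for each measured gene of the 32 homeobox genes and 8 related lists (rows), with called genes in red and named. Satb1, Camk2d and Pou6f1 lie farthest to the left, and Tgm2, Hopx and Flt3 farthest to the right.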

How the data were processed

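The deposited values are log2 signals per probe set for 6 arrays. RMA and Affymetrix Power Tools 1.178 are named in the submitters' processing notes, while the sources used here do not name a genome build. Of 35556 probe sets, 21789 had exactly 1 symbol in the platform annotation. A gene with several (999 genes) took the brightest on average. This gave 19938 genes, dim ones included.

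Limma 3.58.1 (lmFit and eBayes, R 4.3.3) tested shHLX minus shControl, two-sided and without covariates, and p-values were adjusted by Benjamini-Hochberg over all genes. The code was tested on simulated data. Single values had exact permutation tests. Precision is limited by the number of arrays; the median gene had a replicate SD of 0.0728.

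The members and lists were chosen with earlier results of these data known. All members were accounted for; values on every array are given for called members, Hlx, the 6 with the next smallest p, the 2 brightest of each class, and Meis1, Hoxa9 and others added after their values were seen. From each other list up to 4 called genes with the smallest p were named, or the smallest p where none was called. Alternatives covered normalization, dim filters, variance models, probe sets, threshold, replicate block and each array left out. Promoters are from RefSeq (GRCm38.p6). Figures used matplotlib 3.10.9 in Python 3.11.15.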

Additional observations from a re-analysis of the deposited data

How the results depend on the processing

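Hlx was called in 0 and Hoxb4 in all of the 18 alternatives. The 1233 genes called became 2064 among genes above the median signal, 2261 with an intensity trend, 716 with all probe sets tested, 800 with the replicate number as a block, and 698 to 901 with 1 array left out. The 2 homeobox genes called became 1 (Hoxb4) with centred arrays, all probe sets or the replicate block, and without any 1 array. They became 3 (Hhex, Pbx2 and Hoxb4) above the 25th percentile of signal, with an intensity trend, with array weights and at a 0.10 threshold. Among genes above the median signal they became 4 (Hhex, Pbx2, Hoxb3 and Hoxb4). After a second quantile normalization and without variance moderation the count stayed at 2, with Pbx2 called in place of Hhex (adjusted p of Hhex 0.0631 and 0.0562). What moved the counts in each setting was not tested. Hoxb4 minus Hoxb3 and Hoxb4 minus Hoxb5 kept their sign in the alternatives run for them, with 0.388 to 0.499 and 0.533 to 0.708 as 1 array was left out. With the replicate block Hoxb4 stayed called (limma adjusted p = 0.00348) and Hhex did not. Hoxb4 minus Hoxb3 had an exact p of 0.25 by sign flips within the 3 same-numbered pairs. That is the smallest p such a test can give, so it does not show a weaker difference. Same-numbered arrays deviated from their group means with correlations of -0.17, 0.129 and -0.152, so the numbers were not taken to pair the arrays.

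The sign turned for homeobox genes that were not called, at small values. After a second quantile normalization these were Meis1 0.0345, Hoxa7 0.0341, Hoxa9 0.0232, Hoxa13 0.0359, Hoxb2 0.0382 and Hoxb7 0.0237. With centred arrays they were 0.0148, 0.0141, 0.00706, 0.0181, 0.0189 and 0.00643 in the same order. With array weights they were Hoxa7 0.023, Hoxa9 0.0148, Hoxa11 0.0109, Hoxa13 0.036 and Hoxb7 0.00621.
Leaving out 1 array at a time gave log2 differences of these ranges: Vax2 -0.142 to 0.0123, Meis1 -0.0527 to 0.0675, Pknox1 -0.0394 to 0.0583, Hoxa4 -0.111 to 0.0109, Hoxa6 -0.00974 to 0.137, Hoxa7 -0.0429 to 0.0519, Hoxa9 -0.0395 to 0.00728. They were also Hoxa10 -0.0854 to 0.00441, Hoxa11 -0.0795 to 0.0296, Hoxa13 -0.0425 to 0.0255, Hoxb2 -0.0269 to 0.0286, Hoxb7 -0.0322 to 0.0188 and Hoxc6 -0.131 to 0.00449. The number of arrays limits what can be seen: 0 of the 30 uncalled homeobox genes had an interval reaching beyond -0.40 or 0.26 on the log2 scale. Dim signal limits it too. Of the 32 homeobox genes 15 lay at or below the receptor genes' 95th percentile, where an interval bounds the signal and may not bound the RNA.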

Other observations

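The HOX clusters also hold microRNA genes, which were read after their values were seen. Their probe sets match the hairpin genes, and mature microRNAs were not measured. Mir10a, beside Hoxb4, read 3.74 ± 0.142 in shHLX and 3.64 ± 0.118 in shControl (SD, n = 3 each), brighter than 5.7% of the receptor genes, and was not called (limma adjusted p = 0.565). Mir196b, between Hoxa9 and Hoxa10, read 6.24 ± 0.161 in shHLX and 6.35 ± 0.191 in shControl (SD, n = 3 each, limma adjusted p = 0.644). Mir10b, Mir196a-1 and Mir196a-2 had differences of 0.06, 0.11 and 0.03 on the log2 scale, and their groups overlapped.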
